A study of Mus musculus with 3 samples.

Results

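A cassette exon is an exon that a share of the transcripts of its gene leaves out. When its length is not a multiple of 3, keeping it or leaving it out moves the reading frame of every codon downstream. In hearts of 12-week-old Rbm20 knock-in mice, 817 such frame-shifting exons of 622 genes were taken from 469293 exonic parts. A member is an exonic part of 28 to 999 bases, not divisible by 3, that belongs to 1 gene only, touches no other part of that gene and is neither its first nor its last part. It had at least 50 inclusion and exclusion reads together in each library and a percent spliced in (PSI) of 10% to 90% in the wild-type, and Ttn was left out. Of 81204 parts of such length and place, 21931 had the reads, and 18830 of these lay above the window and 2284 under it. The name cassette exon holds in the strict sense, an internal exon skipped alone, for 259 of the 817. The others had a neighbouring exon with at least 50% as many exclusion reads, are alternative first or last exons, or matched no whole annotated exon. Inclusion reads are those counted in the exon and exclusion reads those that span it. PSI is the inclusion reads per possible read position as a percentage of the sum of the inclusion and the exclusion reads per possible position. The wild-type PSI and the read depth thus chose the members, and differences from the wild-type are given as descriptions. The homozygote and heterozygote PSI did not enter the choice, so their difference leads below.

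The wild-type (WT), heterozygote (Het) and homozygote (Hom) groups were 12 weeks old, and no treatment is named. The heterozygote carried the I538T allele of Rbm20 on 1 chromosome and the homozygote on both. The allele was made by CRISPR/Cas9 in zygotes, and founders were crossed to C57BL/6J mice. All groups thus shared that strain, the heart as tissue and the same library kit, and each genotype was 1 library. There is no replicate and no test between genotypes. The intervals in parentheses are exact 95% intervals that cover counting error only, and a difference between mice cannot be told apart from a difference between genotypes. Libraries of other ages were not analysed here. The number of mice behind a library could not be settled, because the methods describe representative libraries while a legend describes averages over mice.

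RBM20 is a splicing repressor of heart muscle that binds UCUU motifs in introns next to regulated exons and keeps these exons out of transcripts such as that of titin. A frame-shifting exon can carry or expose a premature stop codon. A stop well upstream of the last exon junction marks a transcript for nonsense-mediated decay, so such poison exons lower the yield of protein, and several splicing factors hold the level of their own transcripts in this way. Other frame-shifting exons sit near the end of the coding sequence and exchange the C terminus.

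The sequences of 11 exons to which the results return are shown first, read 5′ to 3′ on the transcribed strand from GENCODE M21 transcripts (GRCm38). The next 6 are coding exons with large differences, in capitals, with 15 bases of the neighbouring exons of the transcript in lower case. Psmg4 had the deepest reads among the single exons past 20 points, Fam204a, Map2k5 and Guf1 were lowest in the wild-type, Nprl3 belongs to a list of RBM20 targets, and Rbfox2 encodes a splicing factor.
Psmg4, chr13:34166061-34166136 on the plus strand: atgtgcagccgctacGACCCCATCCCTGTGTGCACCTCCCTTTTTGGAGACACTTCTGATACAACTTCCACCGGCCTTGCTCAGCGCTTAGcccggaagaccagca
Fam204a, chr19:60220490-60220577 on the minus strand: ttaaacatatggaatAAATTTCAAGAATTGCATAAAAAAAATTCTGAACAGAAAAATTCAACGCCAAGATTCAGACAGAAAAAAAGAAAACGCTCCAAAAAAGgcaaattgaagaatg
Map2k5, chr9:63357993-63358060 on the minus strand: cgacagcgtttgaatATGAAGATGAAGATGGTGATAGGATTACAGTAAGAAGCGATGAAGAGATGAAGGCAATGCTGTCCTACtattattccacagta
Guf1, chr5:69563083-69563222 on the plus strand: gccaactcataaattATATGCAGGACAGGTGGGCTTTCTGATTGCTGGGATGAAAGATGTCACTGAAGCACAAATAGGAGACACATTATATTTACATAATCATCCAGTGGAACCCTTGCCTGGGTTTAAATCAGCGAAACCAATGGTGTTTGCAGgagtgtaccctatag
Nprl3, chr11:32255439-32255568 on the minus strand: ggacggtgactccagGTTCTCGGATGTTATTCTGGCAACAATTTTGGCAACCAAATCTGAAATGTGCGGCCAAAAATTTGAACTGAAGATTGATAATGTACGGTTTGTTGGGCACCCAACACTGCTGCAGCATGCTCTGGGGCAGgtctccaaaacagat
Rbfox2, chr15:77091812-77091854 on the minus strand: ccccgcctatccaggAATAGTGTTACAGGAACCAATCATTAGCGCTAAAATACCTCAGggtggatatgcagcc
The next 3 lines show the part of an exon around the first stop codon that its inclusion brings. That stop, in the frame of the annotated coding transcript, is in capitals, and decay of these transcripts was not measured.
Hnrnpl, within chr7:28817335-28817404 on the plus strand: ctaactcactgtTGAagcgtccaatg
Rbm24, within chr13:46422276-46422388 on the plus strand: atacagttaagcTAActgatcagaagg
Max, within chr12:76939430-76939514 on the minus strand: gaaagcgagagcTGAtcaagttctttg
The last 2 are a pair of neighbouring Rab6a exons of 106 bases, of which a transcript takes one or the other. The 30 bases at which they differ are in capitals, and the other 76 are identical.
Rab6a, left exon, chr7:100629666-100629771 on the plus strand: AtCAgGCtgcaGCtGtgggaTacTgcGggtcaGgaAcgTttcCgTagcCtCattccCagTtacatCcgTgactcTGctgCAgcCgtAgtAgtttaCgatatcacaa
Rab6a, right exon, chr7:100629838-100629943 on the plus strand: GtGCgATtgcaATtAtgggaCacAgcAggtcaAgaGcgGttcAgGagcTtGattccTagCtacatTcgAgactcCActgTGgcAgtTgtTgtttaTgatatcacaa

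Inclusion reads totalled 149633524 in WT, 157178099 in Het and 157990953 in Hom. The smallest number of reads over a member in the 3 libraries had a median of 141 and reached 154286, and the interval of a PSI value had a median width of 11.9 points. Rbm20 itself was at 37.2, 36.004 and 40.6 CPM, the inclusion reads of a gene scaled to equal library totals, in WT, Het and Hom; the knock-in base cannot be read from these tables. All 7 heart markers found were present in each library. The libraries differed in markers of some other cell types. The 5 endothelial markers found summed to 403, 408 and 402 CPM in WT, Het and Hom and the 5 fibroblast markers found to 1126, 1026 and 1122 CPM. The 6 markers of smooth muscle and pericytes summed to 254, 361 and 295 CPM. The summed level of 5 red blood cell markers was 86119 CPM in WT, 31993 in Het and 107317 in Hom. The 6 immune markers summed to 461, 516 and 284 CPM, of which Lyz2 alone gave 383, 438 and 239 CPM. The heterozygote was highest in Lyz2, Adgre1 and Cd3e and the wild-type in Ptprc, Cd68 and Csf1r, while the homozygote was lowest in each. Of 10 markers of small intestine, 8 were at least 3 times higher in the wild-type than in both other libraries and 6 were at 0 in the heterozygote and 6 in the homozygote. Their summed level was 103, 57.3 and 26.0 CPM, of which Lgals4 alone gave 51.5, 56.7 and 25.3 CPM, and the other 9 summed to 51.3, 0.541 and 0.633 CPM. Their part in the PSI differences was not tested.

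The range over the libraries had a median of 10.9 points, was under 10 points in 368 members and under 5 points in 168. The homozygote PSI was at least 20 points above the heterozygote in 47 members and at least 20 points below it in 54. Together these were 12.4% of the members, against 0.874% of the 143400 exonic parts with the same read minimum, of which 0.436% were higher and 0.439% lower. Among the 9143 parts whose wild-type PSI also lay from 10% to 90%, the share was 9.09%, with 4.2% higher and 4.89% lower. In all 101 the interval of the difference left out 0. The median difference was -0.10 points. Against the wild-type, the homozygote was higher by 20 points or more in 82 members and lower in 26, where the background of parts inside the same window was 9.56%, with 6.55% higher and 3.01% lower. The heterozygote was higher in 84 and lower in 25, with a background of 9.89%, of which 7.16% were higher and 2.72% lower. Over all parts with the read minimum the homozygote passed in 0.864% (0.503% higher, 0.361% lower) and the heterozygote in 0.847% (0.506% higher, 0.341% lower). The excess of higher calls over the wild-type moved with the choice of window. With the window placed on the heterozygote PSI, the heterozygote was higher than the wild-type in 41 and lower in 48 of 798 exons, and with the window on the homozygote PSI the homozygote was higher in 46 and lower in 44 of 782. A window on the library outside the contrast left a smaller excess. The homozygote was then higher than the wild-type in 48 and lower in 32, with the window on the heterozygote. The heterozygote was higher in 56 and lower in 33, with the window on the homozygote.

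**Figure D1:**
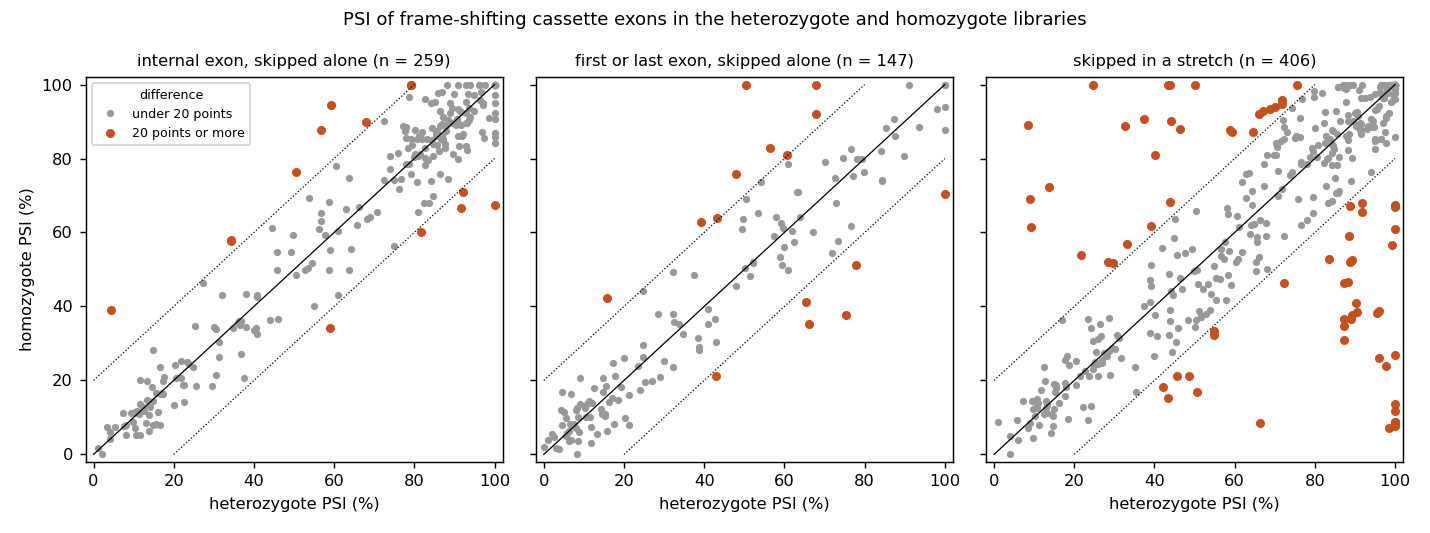
Each point is 1 member, with its PSI in percent in the heterozygote on the horizontal and in the homozygote on the vertical axis. The solid line marks equal values and the dotted lines 20 points; 14 of 259 internal exons skipped alone lie outside the dotted lines, against 72 of 406 exons skipped in a stretch.

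The share of exons past 20 points differed with the exclusion reads of the neighbouring exons. A member was described as skipped in a stretch when the nearest exon in use on either side had at least 50% as many exclusion reads. This held for 406 members, and the other 411 were described as skipped alone. The rule compares numbers of reads and traces no single read, so it cannot tell whether the same reads skipped both exons. The annotation holds 620 members as whole internal exons, 140 as first exons and 52 as last exons; 4 matched no annotated exon and 1 was part of a longer exon. The 259 internal exons skipped alone belong to 255 genes. Among these, the homozygote was higher than the heterozygote in 9 and lower in 5, or 5.41%, and the range over the libraries had a median of 8.88 points. Among the 406 in a stretch, 29 were higher and 43 lower. A total of 177 members, or 21.7%, passed 20 points in at least 1 of the 3 contrasts with an interval that left out 0, against 1.41% of all parts with the read minimum and 16.1% of those inside the window. Of the 177, 120 were in a stretch and 31 were internal exons skipped alone.

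Of the 31 single internal exons past 20 points, that of Psmg4 had the most reads. Psmg4 encodes a chaperone of proteasome assembly. Its exon of 76 bases, exon 2 of 3 in Psmg4-202, had a PSI of 44.5% (40.9 to 48.2) in WT, 53.7% (50.3 to 57.1) in Het and 69.4% (66.2 to 72.6) in Hom, from 751, 919 and 1024 reads. The 3 intervals did not overlap, with the heterozygote between the others. The homozygote minus heterozygote difference was 15.7 points (10.99 to 20.4) and the homozygote minus wild-type difference 24.9 points (20.01 to 29.7). Translated from the annotated start, the transcript ends at codon 124 with the exon and at codon 83 without it, and this stop is not over 50 bases before the last junction. The gene was at 16.2, 18.1 and 20.5 CPM.

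Fam204a, Map2k5, Taf12 and Guf1 were low in the wild-type and close together in both knock-in libraries. The Fam204a exon of 88 bases had a PSI of 57.9% (48.6 to 66.9) in WT, 79.1% (70.1 to 86.5) in Het and 85.2% (76.5 to 91.7) in Hom. Leaving it out moves the stop from codon 237 to codon 84. The Map2k5 exon of 68 bases, exon 3 of 22 in Map2k5-201, was at 66.9% (55.3 to 77.5) in WT, 84.5% (73.2 to 92.5) in Het and 88.2% (77.6 to 95.1) in Hom; Map2k5 is the kinase that activates ERK5. The wild-type was the lowest library in both. Taf12 encodes a subunit of the general transcription factor TFIID, and its exon of 85 bases was at 24.97% (18.9 to 31.98) in WT, 45.8% (37.95 to 54.02) in Het and 49.8% (41.5 to 58.2) in Hom. Guf1, a translation factor of mitochondria, had a PSI of 48.2% in WT, 68.9% in Het and 64.2% in Hom in its exon of 140 bases, from 203, 163 and 185 reads. The homozygote minus heterozygote differences were 6.15 points in Fam204a, 3.70 in Map2k5, 3.95 in Taf12 and -4.68 in Guf1, all under 20 points. Rprd1b, whose product binds the tail of RNA polymerase II, had the same order with 79.9% in WT, 96.4% in Het and 100% in Hom.

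Other single exons were lower in the knock-in libraries than in the wild-type. Alg3 adds mannose to the precursor of N-glycans, and its exon of 100 bases had a PSI of 89.5% (77.8 to 96.4) in WT, 65.7% (51.5 to 78.6) in Het and 61.99% (48.8 to 74.4) in Hom. Numb inhibits Notch signalling, and an untranslated exon of 85 bases was at 81.02% (69.9 to 89.6) in WT, 60.9% (50.96 to 70.5) in Het and 60.3% (49.4 to 70.8) in Hom. The Il15ra exon of 71 bases, in the receptor of interleukin 15, was at 40.6% in WT, 16.6% in Het and 23.6% in Hom. In these 3 the heterozygote and homozygote intervals overlapped each other. Ppp6r3, a regulatory subunit of protein phosphatase 6, showed a graded order in an untranslated exon of 148 bases, with 84.6% in WT, 74.9% in Het and 56.4% in Hom, and its homozygote minus heterozygote difference was -18.6 points (-33.6 to -1.75). Nr2c2ap had 74.1% in WT, 63.7% in Het and 49.9% in Hom in its exon of 106 bases. Rfxank has an exon on the other strand there, and the SMART-seq kit does not mark strand, so the reads of these genes cannot be told apart.

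In other single exons the homozygote had the highest or the lowest value. The untranslated exon of 40 bases in Nmi, an interferon-induced gene, had a PSI of 31.4% (22.4 to 41.8) in WT, 34.3% (25.7 to 43.8) in Het and 57.6% (45.4 to 69.3) in Hom. Its homozygote minus heterozygote difference was 23.3 points (7.80 to 37.9). Spopl, an adaptor of ubiquitin ligases, was at 75.5% in WT, 78.8% in Het and 96.6% in Hom. Bcor, a corepressor, was at 68.7% in WT, 68.04% in Het and 89.8% in Hom in a part of 800 bases with 12, 12 and 3 exclusion reads. Fam126a, a subunit of a lipid kinase complex, was at 65.5% in WT, 59.3% in Het and 94.4% in Hom, with 11, 11 and 1 exclusion reads. In the opposite direction, Prdm16, a transcription regulator, was at 61.6% in WT, 58.9% in Het and 34.2% in Hom, Crlf3 at 88.2% in WT, 91.7% in Het and 66.7% in Hom and Tasp1, a protease, at 75.8% in WT, 81.7% in Het and 60.2% in Hom. The homozygote interval lay apart from both others in Crlf3, and overlapped that of the heterozygote in Prdm16 and those of both others in Tasp1. The heterozygote was the high or low library in others. Cyp2d22, a cytochrome P450, was at 81.1% (71.5 to 88.7) in WT, 50.6% (41.7 to 59.8) in Het and 76.4% (65.6 to 85.5) in Hom, with its heterozygote interval under both others. Homer3, a scaffold protein, was at 70.2% (56.8 to 81.9) in WT, 92.2% (81.8 to 97.8) in Het and 70.96% (56.7 to 83.2) in Hom, where the intervals overlapped. Xaf1, which is induced by interferon, was at 47.8% in WT, 34.3% in Het and 58.002% in Hom, from 344, 352 and 327 reads.

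**Figure D2:**
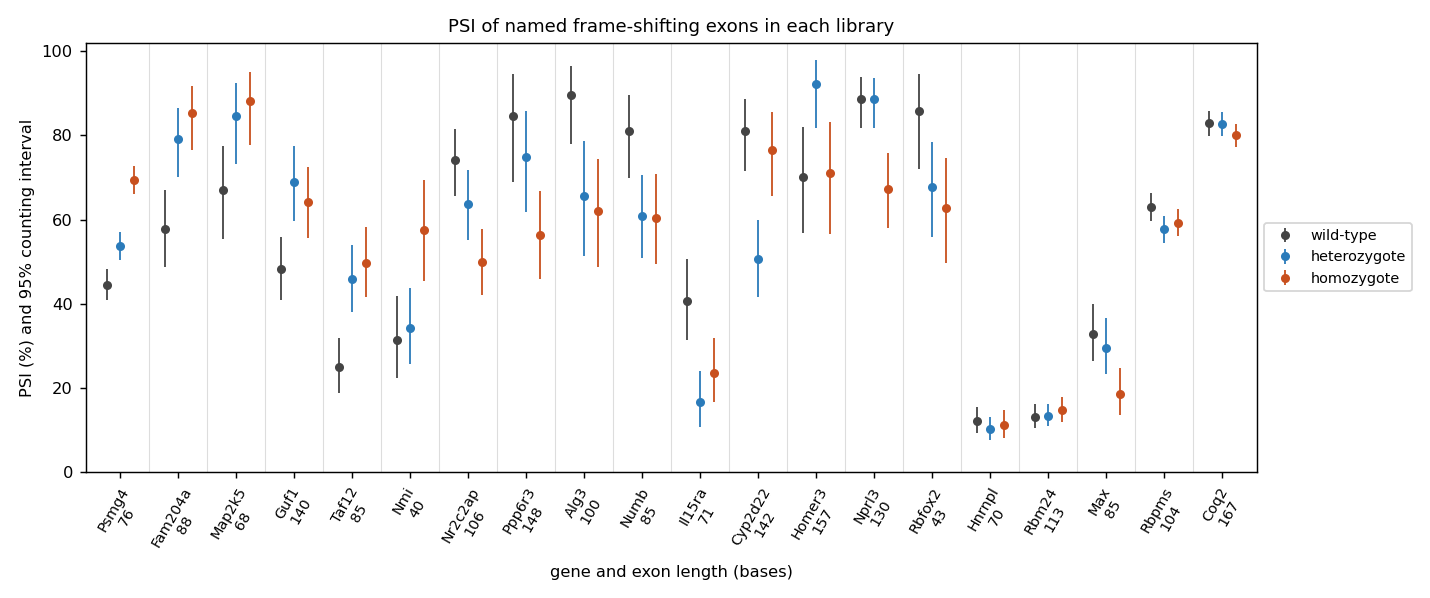
PSI in percent of 20 named exons, with gene and exon length in bases on the horizontal axis, 1 point per library and bars for the exact 95% counting interval. The intervals of Psmg4 do not overlap between libraries, those of Fam204a and Taf12 overlap between the heterozygote and the homozygote only, and Hnrnpl and Rbm24 lie at 10.2% to 14.7% in each library.

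Single exons with many reads varied little. Of the 32 internal exons skipped alone with at least 500 reads in each library, 30 had a range under 10 points and 22 under 5, with a median range of 3.50 points; the only one past 20 points was Psmg4. Ldhb, a subunit of lactate dehydrogenase, had a PSI of 89.5% (89.1 to 89.9) in WT, 87.9% (87.4 to 88.3) in Het and 88.7% (88.2 to 89.2) in Hom in its exon of 124 bases, from 33462, 36722 and 30577 reads. Hikeshi, which imports heat shock proteins into the nucleus, was at 80.5% in WT, 80.1% in Het and 81.3% in Hom. Coq2, an enzyme of coenzyme Q synthesis, was at 82.9% in WT, 82.7% in Het and 80.1% in Hom. Polr2c, a subunit of RNA polymerase II, was at 87.9% in WT, 89.3% in Het and 89.5% in Hom. Txnl1, a thioredoxin-like protein, was at 14.4% in WT, 14.8% in Het and 14.3% in Hom. These 5 exons spanned 0.465 to 2.80 points over the 3 genotypes.

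The rule also took alternative first and last exons, where the exclusion reads come from transcripts that start upstream or end downstream. There were 102 first and 45 last exons skipped alone. Of these, 18 of 102 first and 8 of 45 last exons passed 20 points in some contrast with an interval that left out 0. The same held for 21.7% of all members and 16.1% of the parts inside the window. Fut8, which adds fucose to the core of N-glycans, had a first exon of 295 bases with a PSI of 59.1% (52.6 to 65.6) in WT, 38.6% (31.6 to 46.3) in Het and 31.4% (25.6 to 37.98) in Hom. Atp2b1 encodes a plasma membrane calcium pump, and its first exon of 220 bases was at 42.9% (32.8 to 54.04) in WT, 25.3% (18.7 to 33.2) in Het and 19.6% (13.8 to 26.9) in Hom. The wild-type was highest in both. The heterozygote and homozygote intervals overlapped in both, and in Atp2b1 the heterozygote interval also overlapped that of the wild-type. Dennd1b was at 83.3% in WT, 58.98% in Het and 53.5% in Hom. The first exon of Rai2 was at 68.2% (59.7 to 76.1) in WT, 56.5% (48.96 to 64.1) in Het and 82.97% (75.4 to 89.2) in Hom, the lowest in the heterozygote and the highest in the homozygote. Hdac9, a class IIa histone deacetylase, was at 69.1% in WT, 67.96% in Het and 100% in Hom in a first exon of 275 bases, with 8, 14 and 0 exclusion reads. Sphk2, a sphingosine kinase, was at 16.005% in WT, 24.8% in Het and 44.1% in Hom. Among last exons, that of 335 bases in Tef, a clock-controlled transcription factor, was at 67.9% (60.4 to 75.04) in WT, 65.5% (57.04 to 73.6) in Het and 41.1% (33.99 to 48.8) in Hom. Med1, a Mediator subunit, was at 39.9% (30.2 to 51.3) in WT, 75.5% (59.1 to 88.7) in Het and 37.7% (29.04 to 47.7) in Hom, with the heterozygote above both others. An alternative first exon of Kcnh2, the channel of the rapid delayed rectifier current, was at 55.1% in WT, 54.2% in Het and 73.6% in Hom, with a homozygote minus heterozygote difference of 19.4 points (-1.97 to 37.97).

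Of 43 RBM20 targets in the list, which includes Ttn although the rule left it out, 6 had members, 15 in all, of which 7 lay in Myh7. Of the 15, 4 passed 20 points in at least 1 contrast with an interval that left out 0, 3 of them in Myh7, where the same held for 21.7% of all members and 16.1% of the parts inside the window. Nprl3, a subunit of the GATOR1 complex that inhibits mTORC1, was the one target outside Myh7 with a member past 20 points. Its exon of 130 bases had a PSI of 88.7% (81.8 to 93.8) in WT, 88.7% (81.7 to 93.7) in Het and 67.3% (57.99 to 75.9) in Hom. The homozygote minus heterozygote difference was -21.4 points (-31.96 to -10.3), while the heterozygote and wild-type had nearly the same value. Leaving out this exon alone moves the stop from codon 570 to codon 78. The exclusion reads of its nearest neighbour in use were more numerous than its own, which puts it among the exons in a stretch. Its exclusion reads thus need not count the loss of this exon alone.

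The remaining targets outside Myh7 stayed under 20 points. Tnnt2, cardiac troponin T, had 3 members with the most reads of all, from 133272 to 161033 in the wild-type. The exon of 34 bases was at 81.95% in WT, 78.7% in Het and 80.3% in Hom, that of 64 bases at 81.2% in WT, 77.9% in Het and 78.5% in Hom and that of 110 bases at 83.8% in WT, 83.8% in Het and 85.2% in Hom. Pdlim3, a Z-disc protein, was at 82.7% in WT, 79.3% in Het and 82.9% in Hom in its exon of 188 bases and at 13.9% in WT, 16.9% in Het and 16.4% in Hom in that of 68 bases. Ppp2r5c, a regulatory subunit of protein phosphatase 2A, was at 19.4% in WT, 18.3% in Het and 26.7% in Hom, and the first exon of 320 bases in Rtn4 at 31.3% in WT, 15.5% in Het and 17.8% in Hom. Myh7, the slow myosin heavy chain, is a near-identical neighbour of Myh6, so the reads of both are uncertain. Of its 7 members, 3 passed 20 points. The exon of 124 bases was at 40.1% in WT, 35.4% in Het and 16.9% in Hom, that of 139 bases at 65.7% in WT, 40.02% in Het and 37.6% in Hom and that of 157 bases at 73.4% in WT, 99.9% in Het and 66.98% in Hom. The 19 Myh6 members ranged from 22.8% to 50.9% in WT, from 21.3% to 55.3% in Het and from 21.3% to 43.3% in Hom.

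The candidate poison exons of Hnrnpl, Hnrnpll and Rbm24 had a low PSI in each library, and decay of their transcripts was not measured. SR proteins gave 1 member in 27 genes, hnRNP proteins 4 members in 4 of 32 genes, splicing kinases 1 in 11 and factors of nonsense-mediated decay 0 in 18. The exon of 70 bases in Hnrnpl, whose stop codon lies at base 57, had a PSI of 12.1% (9.35 to 15.5) in WT, 10.2% (7.70 to 13.1) in Het and 11.2% (8.12 to 14.9) in Hom. That of 83 bases in its paralog Hnrnpll was at 13.8% (7.77 to 22.3) in WT, 11.5% (6.13 to 19.3) in Het and 5.30% (2.29 to 10.3) in Hom, from 72, 74 and 95 reads. The exon of 113 bases in Rbm24, a splicing regulator of heart and skeletal muscle with a stop at base 20, was at 13.1% (10.5 to 16.2) in WT, 13.4% (10.9 to 16.2) in Het and 14.7% (11.99 to 17.8) in Hom. The intervals of the 3 libraries overlapped in Hnrnpl, Hnrnpll and Rbm24. Inclusion moves the stop from codon 587 to codon 310 in Hnrnpl and from codon 237 to codon 123 in Rbm24. Hnrnph3 was at 88.4% in WT, 81.4% in Het and 81.3% in Hom in a coding exon of 139 bases, the first exon of Hnrnpf at 10.03% in WT, 10.2% in Het and 12.4% in Hom, Srrm2 at 88.2% in WT, 89.8% in Het and 89.6% in Hom and Clk3 at 21.7% in WT, 33.8% in Het and 35.3% in Hom. None of these passed 20 points.

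The muscle splicing regulators gave 8 members in 6 of 28 genes. Rbfox2 had the one exon past 20 points. Its coding exon of 43 bases, exon 10 of 13 in Rbfox2-206, was at 85.7% (71.9 to 94.5) in WT, 67.8% (55.8 to 78.5) in Het and 62.7% (49.6 to 74.7) in Hom, from 54, 80 and 68 reads. The homozygote minus wild-type difference was -23.05 points (-38.8 to -4.74) and the heterozygote minus wild-type difference -17.9 points (-32.8 to -0.467), which did not pass 20 points. Leaving it out moves the stop from codon 379 to codon 368. The Mbnl1 exon of 95 bases was at 63.9% in WT, 58.4% in Het and 64.9% in Hom. Rbpms was at 62.97% (59.7 to 66.2) in WT, 57.7% (54.3 to 60.9) in Het and 59.3% (56.1 to 62.4) in Hom in its internal exon of 104 bases, whose skipping moves the stop from codon 192 to codon 225. Rbm10 was at 71.2% in WT, 79.9% in Het and 80.3% in Hom in its exon of 184 bases and at 74.5% in WT, 77.2% in Het and 88.8% in Hom in that of 74 bases. Rbm25, a spliceosome-associated protein, was at 16.8% in WT, 10.2% in Het and 10.4% in Hom, and the last exon of 244 bases in Rbpms at 15.9% in WT, 16.3% in Het and 14.2% in Hom.

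Max, the partner of MYC, showed a lower PSI in the homozygote without reaching 20 points. Its exon of 85 bases was at 32.9% (26.5 to 40.03) in WT, 29.5% (23.2 to 36.5) in Het and 18.6% (13.5 to 24.7) in Hom, from 176, 166 and 153 reads, and the homozygote minus wild-type difference was -14.4 points (-23.1 to -5.46). Inclusion moves the stop from codon 161 to codon 104. Among genes of calcium handling, 6 members lay in 4 of 42 genes. The exon of 221 bases in Atp2a2, the calcium pump of the sarcoplasmic reticulum, was at 86.4% in WT, 91.02% in Het and 98.6% in Hom, with 1794, 1006 and 177 exclusion reads. Mcub, a regulatory subunit of the mitochondrial calcium uniporter, was at 84.4% in WT, 96.8% in Het and 87.3% in Hom. Ppp3cc, a catalytic subunit of calcineurin, had 3 members, of which that of 146 bases was at 86.7% in WT, 100% in Het and 97.8% in Hom. None of these passed 20 points with an interval that left out 0, and the other gene was Atp2b1, given above. The remaining ion channel genes with members were Ano10, whose first exon of 94 bases was at 83.5% in WT, 84.4% in Het and 73.9% in Hom, and Clcn3, at 65.3% in WT, 55.3% in Het and 47.6% in Hom.

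Outside the myosin genes, sarcomere and Z-disc members were few. The first exon of Myom2, an M-band protein, was at 10.3% in WT, 7.61% in Het and 8.14% in Hom, and the Tpm3 exon of 79 bases, in a tropomyosin, at 10.1% in WT, 9.41% in Het and 11.1% in Hom. Sorbs2, an adaptor of the Z-disc, was at 13.2% in WT, 10.5% in Het and 5.11% in Hom, and the first exon of Cryab, a small heat shock protein, at 63.6% in WT, 59.4% in Het and 51.2% in Hom. Svil, supervillin, had 4 members, of which that of 577 bases was at 87.4% in WT, 100% in Het and 100% in Hom with 8, 0 and 0 exclusion reads. None of the 8 Z-disc members passed 20 points.

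Pairs of exons of equal length showed the frame kept by exchange. The left Rab6a exon had a PSI of 43.8% (39.4 to 48.3) in WT, 37.3% (33.7 to 41.1) in Het and 40.1% (36.2 to 44.1) in Hom, and the right one of 58.2% (53.5 to 62.9) in WT, 65.5% (61.4 to 69.5) in Het and 57.5% (53.4 to 61.5) in Hom. Rab6a is a GTPase of the Golgi apparatus. The sums of both were 102%, 103% and 97.6%, near the whole that 1 exon per transcript gives. Dnm2, a GTPase that cuts endocytic vesicles from the membrane, had a member of 139 bases at 69.7% in WT, 66.3% in Het and 63.3% in Hom, and its neighbour of the same length, which is no member, brought the sums to 106%, 101% and 101%. Neither pair differed by 20 points between genotypes.

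Members with near-equal exclusion reads in each library held many of the large differences, and the same reads may then have been counted over several exons. Sharing was inferred from these numbers, and single reads were not traced. Exclusion reads equal within 5% or 5 reads joined the 817 members into 731 sets of skipping reads. There were 40 sets with more than 1 member, 126 members in all, and 5 sets with 30 members crossed from 1 gene into others. Of the 126, 19 were higher and 23 lower in the homozygote than in the heterozygote by 20 points or more. Together these were 33.3%, beside 12.4% of all members and 9.09% of the parts inside the window. In the sarcomere, Mybpc3, myosin-binding protein C of the heart, had 5 such exons. Their exclusion reads numbered 350 to 353 in WT, 1445 to 1447 in Het and 283 to 292 in Hom. Their PSI was 86.0% to 89.7% in WT, 66.1% to 71.8% in Het and 92.0% to 94.7% in Hom. The heterozygote was therefore the low library in all 5.

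**Figure D3:**
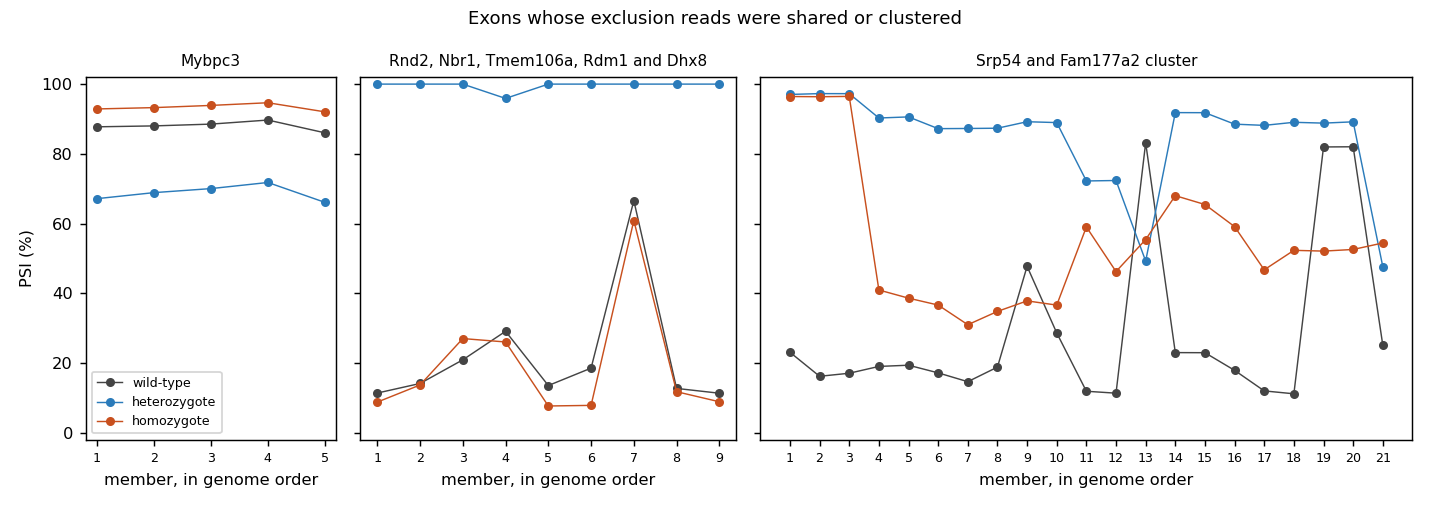
PSI in percent for members in genome order in Mybpc3 (5), in the genes from Rnd2 to Dhx8 (9) and in the Srp54 and Fam177a2 cluster (21), with 1 line per library. In the second panel the heterozygote lies between 95.9% and 100% while both other libraries lie at 7.67% to 66.6%, and in the first the heterozygote is the lowest library.

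On chromosome 11, 9 members of Rnd2, Nbr1, Tmem106a, Rdm1 and Dhx8 had 338 to 343 exclusion reads in WT, 0 to 7 in Het and 432 to 445 in Hom. Their inclusion reads summed to 2067, 2133 and 2126. The PSI therefore lay from 95.9% to 100% in the heterozygote and from 7.67% to 60.9% in the homozygote. Such near-equal numbers ran over 5 genes, so a count of exons here cannot be taken as a count of separate splicing differences.

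Tandem copies of genes held many of the other large differences. Srp54a, Srp54b and Srp54c encode copies of a signal recognition particle subunit and lie on chromosome 12 with Fam177a2. The 21 members of 6 genes in this cluster had a median PSI of 19.0% in WT, 89.0% in Het and 52.3% in Hom, and all 21 passed 20 points in some contrast. A cluster of zinc finger genes on chromosome 2, with 26 members in 18 genes, had a median of 54.6%, 98.3% and 100%. In Gm14288 the exon of 127 bases had 812, 0 and 0 exclusion reads and 1062, 908 and 868 inclusion reads. Of 26 members with a length of 127 bases, 15 lay in this cluster. Selenbp1, on chromosome 3, had 4 members with a median of 54.5%, 99.3% and 95.4%, and Gm3776 on chromosome 9 had 4 with a median of 46.5%, 98.0% and 97.8%. The Entpd4 cluster on chromosome 14, with 10 members in 3 genes, was at 84.95%, 85.8% and 98.995%. Outside these families, Lyz1, a lysozyme next to its copy Lyz2, was at 16.6% in WT, 98.4% in Het and 7.01% in Hom. The summed immune and intestinal marker levels above also differed between these libraries, and their part was not tested. In such near-identical copies the origin of a read is uncertain, and these values are reported as uncertain. These families were picked out after their values were seen. Together with Myh6, Myh7, Mybpc3, Tnnt2, a chemokine cluster on chromosome 4, the neighbouring genes from Rnd2 to Dhx8 and the genes from Gm3435 to Ermard on chromosome 17, they held 122 members and 81 of the 177 past 20 points.

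Several exons in a stretch lay outside the families named above, and neighbouring copies of their genes were not searched for. Lyrm4, which serves iron-sulfur cluster assembly in mitochondria, was at 29.9% in WT, 58.3% in Het and 48.6% in Hom in its exon of 121 bases, with 326, 90 and 145 exclusion reads. Senp6, a SUMO protease, was at 66.01% (58.6 to 72.98) in WT, 75.3% (67.8 to 81.96) in Het and 86.1% (77.3 to 92.5) in Hom. Acad10, an acyl-CoA dehydrogenase family member, was at 63.01% in WT, 94.5% in Het and 90.1% in Hom, with 9, 1 and 2 exclusion reads. The first exon of 287 bases in Macf1, a crosslinker of microtubules and actin, was at 51.2% in WT, 70.6% in Het and 83.5% in Hom, while another first exon of 232 bases in Macf1 was at 27.999% in WT, 42.8% in Het and 21.3% in Hom. Senp6 was graded in the order wild-type, heterozygote, homozygote. The Gstm2 exon of 82 bases, in a glutathione transferase with close relatives beside it, was graded the other way at 80.1% (78.2 to 81.9) in WT, 66.2% (64.3 to 68.002) in Het and 53.4% (51.4 to 55.3) in Hom.

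Other members with large differences lay in predicted genes, pseudogenes and copies. In Gm4631, in the chromosome 2 cluster, 3 exons had 289, 275 and 0 exclusion reads in WT, Het and Hom, and that of 127 bases was at 53.9% in WT, 50.1% in Het and 100% in Hom. Zfp965 was at 10.3% in WT, 100% in Het and 100% in Hom and the Zfp966 exon of 61 bases at 25.7% in WT, 100% in Het and 100% in Hom. Gm14419 was high in the homozygote alone, at 35.4% in WT, 24.7% in Het and 100% in Hom. In this cluster the wild-type was thus low in some genes, while the heterozygote was low as well in others. Gm16332 on chromosome 1 had 3 exons low in the heterozygote, of which that of 179 bases was at 64.3% in WT, 13.8% in Het and 72.3% in Hom. Tmem181b-ps, a pseudogene, was at 11.3% in WT, 8.47% in Het and 89.1% in Hom, and 6820431F20Rik at 82.3% in WT, 97.8% in Het and 23.8% in Hom. Selenbp2, the copy beside Selenbp1, was at 56.9% in WT, 42.1% in Het and 18.3% in Hom in its exon of 119 bases and at 31.2% in WT, 48.6% in Het and 21.2% in Hom in that of 79 bases. Of the zinc finger genes elsewhere, Zfp994 was at 70.2% in WT, 21.7% in Het and 54.04% in Hom and Gm7072 at 64.3% in WT, 33.1% in Het and 57.01% in Hom, with the heterozygote lowest in both. The 4 Gm21451 exons of the Entpd4 cluster were high in the homozygote, that of 407 bases at 30.3% in WT, 32.7% in Het and 88.9% in Hom. Among first exons skipped alone, Gm12295 was at 87.8% in WT, 66.2% in Het and 35.4% in Hom, with 3, 12 and 30 exclusion reads.

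Among the members with at least 500 reads in each library, those of Trp53inp2, Txnl1, Zc3h14, Adk and an exon of Myh6 had the smallest range. The Adk exon of 199 bases, in adenosine kinase, was at 27.8% in WT, 28.8% in Het and 27.9% in Hom, and the Zc3h14 exon of 233 bases, in a poly(A)-binding protein, at 49.8% in WT, 50.6% in Het and 49.9% in Hom. Trp53inp2, an autophagy protein, was at 10.1% in WT, 10.5% in Het and 10.1% in Hom. Idh3b, a subunit of mitochondrial isocitrate dehydrogenase, was at 88.99% in WT, 90.1% in Het and 88.9% in Hom, and Hadhb, of fatty acid oxidation, at 89.2% in WT, 87.8% in Het and 95.2% in Hom. Fxr1, an RNA-binding protein of muscle, was at 86.9% in WT, 90.6% in Het and 92.6% in Hom. The deepest member outside the sarcomere lay in Gpx4, the peroxidase of membrane lipids, at 88.2% in WT, 98.01% in Het and 98.99% in Hom. From the other lists, the member with the most reads was at 39.9% in WT, 46.03% in Het and 36.7% in Hom in Prpf39 of the spliceosome, at 27.04% in WT, 30.6% in Het and 21.6% in Hom in the chromatin remodeller Atrx, at 57.1% in WT, 57.3% in Het and 59.1% in Hom in the microtubule protein Mtus1 and at 16.2% in WT, 14.3% in Het and 12.2% in Hom in the noncoding RNA Mhrt. Except for Gpx4, each of these exons differed by less than 10 points between any pair of libraries.

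In 195 members PSI was ordered from wild-type over heterozygote to homozygote, and in 115 in the reverse order. Together these orders made up 33.7% of the members. Equal values were placed in the sequence wild-type, heterozygote, homozygote. The 195 thus include members without a step between the knock-in libraries, such as Arhgap32, at 100% in both. Among the 784 frame-keeping exons described below, 154 had the first order and 107 the reverse. The order with the heterozygote highest and the homozygote lowest held in 150, with the wild-type lowest and the heterozygote highest in 154, with the heterozygote lowest and the homozygote highest in 111 and with the heterozygote lowest and the wild-type highest in 92, and no order is a test of dose. A single library stood apart in 85 members, which means at least 20 points from both others in 1 direction while the remaining pair stayed closer than 10 points. The wild-type was low in 30 and high in 6, the heterozygote high in 21 and low in 9, and the homozygote high in 12 and low in 7. Among the 411 skipped alone there were 25, spread over all 3 libraries in both directions. Of the 784 frame-keeping exons, 70 had a single library apart, and of the 446 of these skipped alone, 15 did.

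For most internal exons inside a coding sequence, leaving out that exon alone gave an early stop codon in the annotated transcript. Of the internal exons, 421 lay inside the coding sequence of a complete coding transcript, and skipping gave a stop over 50 bases before the last junction in 318, or 75.5%. A further 68 lay between coding exons of a transcript that leaves them out, and inclusion gave such a stop in 51. The first stop then lay in the exon itself in 43 of the 51. Among frame-keeping exons chosen by the same rule, skipping gave an early stop in 2 of 536 and inclusion in 18 of 65. Leaving out a length divisible by 3 keeps the frame, so the difference for skipping follows from the choice of lengths and is no result. For inclusion, the first stop lay in the exon itself in all 18 of the frame-keeping exons, and the difference in shares was not tested. Median PSI was high for exons inside a coding transcript and lower for exons that such a transcript leaves out. Exons whose skipping gave the stop had a median PSI of 78.9%, 84.4% and 82.9% in WT, Het and Hom, and those whose inclusion gave it of 18.1%, 15.5% and 16.6%. The wild-type value was limited to 10% to 90% by the choice of members. Of the 51, 0 were higher and 0 lower in the homozygote than in the heterozygote by 20 points or more. With a median heterozygote PSI of 15.5%, many of the 51 could not be lower by that much. Against the wild-type, the homozygote passed 20 points in 3 of the 51 and the heterozygote in 1, beside 13.2% and 13.3% of all members. Of the 318, 10 were higher and 35 lower in the homozygote than in the heterozygote, or 14.2%, beside 12.4% of all members and 9.09% of the parts inside the window. The excess of lower calls was not seen among the 103 of the 318 that were skipped alone, of which 4 were higher and 3 lower, or 6.80%.

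**Figure D4:**
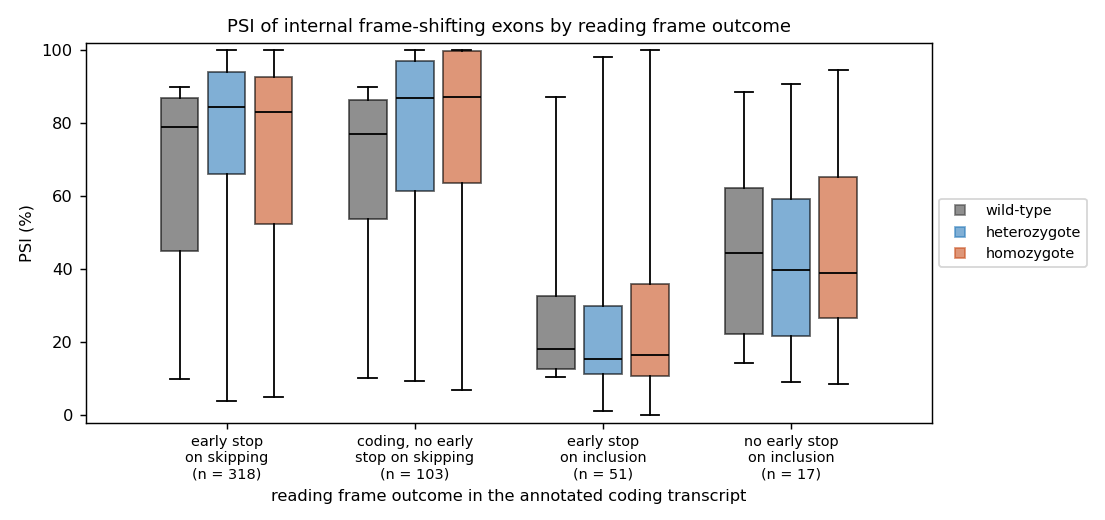
PSI in percent of internal members by reading frame outcome, 1 box per library, with the median as a line, the box from the lower to the upper quartile and whiskers to the lowest and highest member. Exons whose inclusion gives an early stop have low medians and coding exons have high medians in each library.

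Between homozygote and heterozygote, the shares of frame-shifting and frame-keeping exons past 20 points were close, and between homozygote and wild-type the frame-shifting share was the larger. Lengths divisible by 3 under the same limits gave 784 exons in 579 genes. The homozygote was higher than the heterozygote by 20 points or more in 46 of these and lower in 46, or 11.7%, against 12.4% of the frame-shifting exons. Among internal exons skipped alone the shares were 5.41% of 259 frame-shifting and 5.35% of 355 frame-keeping exons. Against the wild-type, the homozygote passed 20 points in 108 frame-shifting exons, or 13.2%, and in 62 frame-keeping exons, or 7.91%. Those higher in the homozygote were 82, or 10.04%, and 44, or 5.61%. The heterozygote passed 20 points against the wild-type in 13.3% of the frame-shifting and 12.6% of the frame-keeping exons. Among internal exons skipped alone, homozygote and wild-type differed in 17 of 259 frame-shifting exons, or 6.56%, and in 16 of 355 frame-keeping exons, or 4.51%. Among exons in a stretch these were 75 of 406, or 18.5%, and 41 of 338, or 12.1%. Near-identical gene copies, whose reads are uncertain, are among the members, and their part in these shares was not tested. With 1 library per genotype none of these shares was tested against each other. The motif TCTT, the DNA spelling of the RBM20 motif, searched on the transcribed strand within the exon, was found in 342 of 812 frame-shifting and 318 of 770 frame-keeping exons whose sequence was annotated, or 4.58 and 4.72 per 1000 bases. Introns were not searched.

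**Figure D5:**
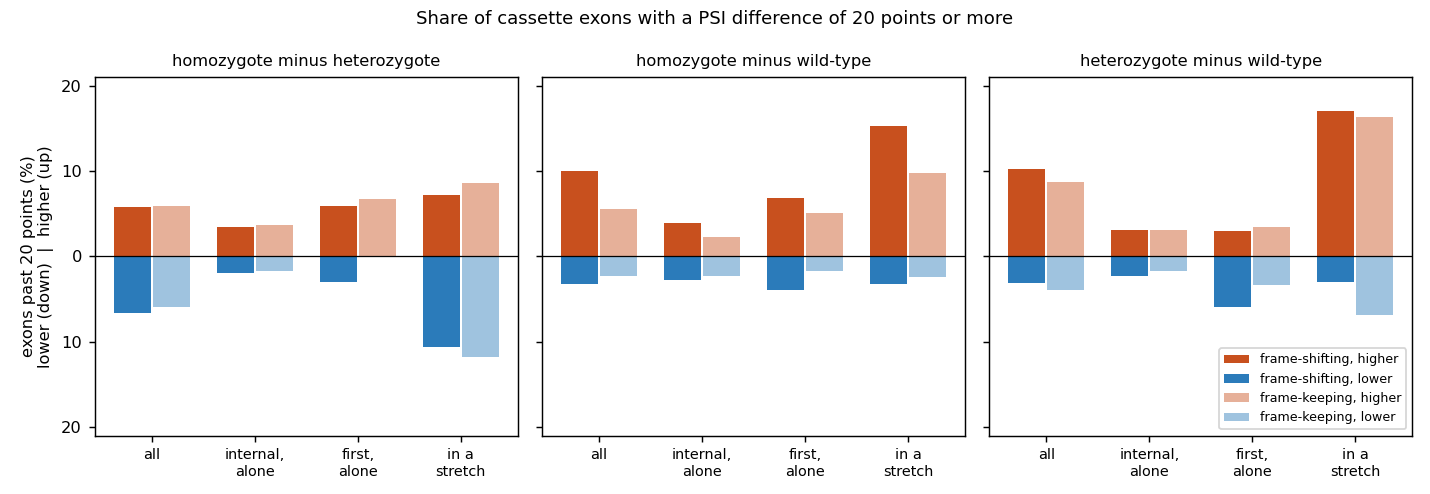
Percent of exons with a PSI difference of at least 20 points, higher drawn up and lower drawn down, for frame-shifting (dark) and frame-keeping (pale) exons in each contrast. There are no replicates; in the homozygote minus heterozygote panel the bars in each direction are longest for exons in a stretch and shorter for internal exons skipped alone.

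The level differed by a log2 ratio of 1 or more between homozygote and heterozygote in 0.966% of member genes, against 0.972% of all expressed genes. The sum of inclusion reads over the parts of a gene, in CPM with 1 added, gave a log2 ratio. Of 621 member genes that averaged 1 CPM or more, 3 were at least 1 higher and 2 at least 1 lower in Hom than in WT, or 0.805%, against 0.319% higher and 1.3% lower of all 12862 genes. Between homozygote and heterozygote 3 were higher and 3 lower, against 0.536% and 0.435% of all genes, a share at the background. The heterozygote was lower than the wild-type in 2, against 0.886% of all genes, and higher in 0, against 0.155%. The median log2 ratio of homozygote to heterozygote was -0.10 over the member genes and -0.10 over all genes. Of the 30 genes with an internal exon skipped alone past 20 points, 1 lay beyond a log2 ratio of 1, 2310020H05Rik. In the 201 genes with an exon whose skipping gives an early stop, no log2 ratio reached 1 in either direction, with a range from -0.85 to 0.58 between homozygote and wild-type. Lyz1 was at 44.6, 55.9 and 19.7 CPM. Apol11b, Clec4a2, Firre, Gm49376, Hectd2os and Zfp969 were the others past a ratio of 1 in some contrast.

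At the limits of the rule, Myh7 (10.0055%) and Hpcal1 (10.0245%) lay just above the lower wild-type PSI limit and Prkag1 (9.99447%) and Ppih (9.98312%) just under it. Bace2 (89.9945%) and Dmd (89.9738%) lay just inside the upper limit and Sumf2 (90.0209%) and another Mybpc3 exon (90.0417%) just outside. There were 9 members with exactly 50 reads in their thinnest library and 8 parts with 49. The shortest member was a Myh6 exon of 28 bases and the longest an Arhgap32 exon of 986. Of the members, 24 overlap an annotated exon of another gene on the other strand, so their reads cannot be told apart from those of that gene. Of the 24, 11 were past 20 points, where 21.7% of all members and 16.1% of the parts inside the window passed in some contrast. The 24 include the part of 250 bases in Ccdc66 and the exons given above in Nr2c2ap, Hnrnpf, Mtus1 and Ppp3cc (146 bases).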

How the data were processed

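RNA from hearts of 12-week-old wild-type, heterozygote and homozygote mice was sequenced as 1 SMART-seq v4 library per genotype. Per the submitters' processing notes, reads were handled with cutadapt 1.1, Trimmomatic 0.32, TopHat2 2.0.14, Bowtie 1.1.1 and GRCm38; the annotation release and the counting program are not given in the sources used here. The authors deposited inclusion and exclusion read counts per exonic part, and deposited PSI as a fraction, here given in percent. Counts with the deposited formula (129 exclusion positions) returned the deposited PSI within 5e-07. The 2 columns with the authors' PSI differences and 3 columns of another age that match no sample were not used. Exact Clopper-Pearson 95% intervals of the inclusion share were carried to the PSI scale, and checked on simulated counts. A difference of at least 20 points is counted as a call; without replicates no test between genotypes was made. Gene levels are inclusion reads in CPM, with 1 added before log2. The members, gene lists and rules for named genes were chosen with earlier results of these data known. Members were named where they were among the 15 largest clear differences per contrast and direction, in the lists of RBM20 targets, splicing factors, calcium handling, sarcomere, Z-disc or ion channels, deepest, steadiest or nearest to a limit; some are given as counts and ranges. Exons were placed in GENCODE M21 transcripts. Python 3.11.15, numpy 2.4.6, pandas 2.3.3, scipy 1.17.1 and matplotlib 3.10.9 were used. Alternatives were other read minimums, PSI windows, sizes of difference, 1 member per gene, internal exons and pseudocounts.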

Additional observations from a re-analysis of the deposited data

Results flagged for a closer look

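In 3 members the heterozygote and the homozygote lay on opposite sides of the wild-type by more than 20 points each, and the difference between these contrasts was not tested. The first exon of Zbtb14 was 21.5 points above the wild-type in the homozygote, with a heterozygote minus wild-type difference of -28.1 points, from 5, 18 and 0 exclusion reads in the wild-type, heterozygote and homozygote. It overlaps an exon of another gene on the other strand. The Gm16332 exon of 181 bases was 27.8 points above the wild-type in the homozygote, with a heterozygote difference of -32.4 points. Ccl21b, a chemokine in a cluster of near-identical copies, had a homozygote minus wild-type difference of -21.1 points and a heterozygote difference of 36.1 points. The wild-type library was the middle value in all 3.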

How the results depend on the processing

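No paired analysis was possible because each genotype had 1 library, and for the same reason no library could be left out. The share of members past the size limit was 12.4% for homozygote minus heterozygote, 13.2% for homozygote minus wild-type and 13.3% for heterozygote minus wild-type. With members skipped alone, a setting chosen after seeing the data, these shares were 7.06%, 8.03% and 6.81%, and with internal exons skipped alone, also chosen after seeing the data, 5.41%, 6.56% and 5.41%. A size of 10 points gave 30.4%, 35.7% and 34.8%, and a size of 30 points 6.61%, 6.61% and 8.20%. A wild-type window of 20% to 80% raised homozygote minus wild-type to 20.1%. Members in which 1 library stood apart were 10.4%, against 6.08% skipped alone and 4.63% internal and skipped alone. The 817 members became 1363 with at least 20 reads, 304 with at least 200, 393 in the narrower window, 411 skipped alone and 259 internal and skipped alone. The remaining alternatives stayed within 1.5 times, and the cause of the differences was not tested. The frame-shifting share for homozygote minus heterozygote was 1.05 times the frame-keeping share and ranged from 0.965 times, with the window on the homozygote PSI, to 1.37 times, with members skipped alone, so its direction turned. The split of higher and lower calls turned as well. With the window on the heterozygote PSI, homozygote minus heterozygote had 61 higher and 35 lower, and on the homozygote PSI 33 and 59, against 47 and 54. With at least 200 reads it had 12 and 27, and with internal exons skipped alone 9 and 5. Heterozygote minus wild-type had 41 higher and 48 lower with the window on the heterozygote PSI, 37 and 2 with at least 200 reads and 8 and 6 among internal exons skipped alone, against 84 and 25, and homozygote minus wild-type 10 and 7 among the latter, against 82 and 26. Depth limits the single exons: the 95% interval of a PSI had a median width of 11.9 points and covers counting error only.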
